A study of Mus musculus with 5 samples.

Results

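Keratins are the intermediate filament proteins of epithelial cells. A filament is built from pairs of a type I and a type II keratin, and the pair in use changes with the cell: KRT8 with KRT18 in simple, single-layered epithelia and early embryonic ectoderm, KRT5 with KRT14 in the basal layer of stratified epidermis, KRT1 with KRT10 above it, and hard keratins in the cortex and cuticle of the hair shaft. In the mouse, type I genes lie together in a cluster on chromosome 11 and type II genes in a cluster on chromosome 15, with the type I gene Krt18 beside Krt8 in the latter. The list followed here names 50 keratin genes by symbol. Of these, 49 had a position in the RefSeq table used, 26 on chromosome 11 and 23 on chromosome 15, against 21883 protein-coding genes in all, and Krt85 was not analysed here. Krt74 is listed there as a transcribed pseudogene and was kept as a member.

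The assay was ATAC-seq, where transposase inserts adapters into open chromatin, on CD1 mouse embryos of no stated genetic change. The samples were distal ectoderm of the forelimb at embryonic stage E14.5 (2 libraries), distal ectoderm of the hindlimb at the same stage (2 libraries) and forebrain at E13.5 (1 library). Ectoderm had been separated from mesoderm with trypsin and forebrain digested with collagenase, so the effects of tissue, age and dissociation cannot be told apart in any comparison with forebrain. Nothing states that replicates came from separate embryos, so their spread may be technical. Whole-tissue peaks do not show which cells were open: fewer cells with an open site and a less open site in every cell cannot be told apart.

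A called peak was assigned to a keratin gene when its summit lay in the gene body or within 20 kb of it and no other protein-coding gene was nearer. Peaks of the 5 libraries that shared at least 1 bp were joined into regions. This gave 135 keratin regions among the 145318 regions within 20 kb of any gene used. A region is called ectoderm-only when all 4 ectoderm libraries had a peak in it and forebrain had none, and forebrain-only when forebrain had a peak and no ectoderm library did. Absence of a peak says only that nothing passed the threshold of the deposited list. With 4 ectoderm libraries against 1 forebrain library the smallest one-sided exact permutation p is 0.2, and with 2 against 2 it is 0.167, so no p-value is given and the members' counts are read beside the share over all genes. At the edge of the window, the farthest assigned regions lay 17.6 kb from Krt9, 18.4 kb from Krt80 and 19.2 kb from Krt42, and the nearest that were left out lay 20.2 kb from Krt18 and 20.8 kb from Krt80.

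The libraries differed in how many peaks they held. Their lists had 73830 and 73718 peaks in forelimb replicates 1 and 2, 51510 and 78147 in hindlimb replicates 1 and 2, and the forebrain list had 120297. Near keratin genes, 66 and 64 regions had a peak in forelimb replicates 1 and 2, 74 in hindlimb replicate 2 and only 32 in hindlimb replicate 1. Forebrain, with the longest list, had 33. Counted by gene, 43 of the 49 placed keratins had a region in at least 1 library (background 87.8%). In forelimb replicates 1 and 2, 33 and 32 did (background 77% and 75.7%), in hindlimb replicates 1 and 2, 21 and 35 (69.4% and 76.5%), and in forebrain 21 (77.9%). Hindlimb replicate 1 therefore stands apart, and the totals of ectoderm-only regions and genes are also given without it. Marker lists chosen with earlier results of these data known were set against the tissue labels. All 10 forebrain markers had a peak within 1 kb of a gene end in forebrain (background 64.7%), against 2 or 3 in each ectoderm library. Of 12 keratinocyte factor genes, 7 to 9 had one in the ectoderm libraries and 6 in forebrain. Over all genes 54.5% had one in at least 3 ectoderm libraries, so the keratinocyte factor counts were not far from the general share. Of 10 limb mesenchyme markers, 2 to 6 had such a peak in ectoderm libraries and 8 in forebrain (background 64.7%). The part of mesenchyme cells in the keratin counts was not tested.

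The promoters of keratin genes were mostly without a called peak, and a few sequences show the range. The 250 bases before the start site, from the RefSeq promoter table (GRCm38.p6, the assembly of mm10), are given for 7 genes, in lower case with matches to 4 motifs in capitals on either strand: the motif of the TATA-binding protein (TATAAA), that of AP-1, a dimer of Fos and Jun proteins (TGANTCA), that of the ectodermal AP-2 factors (GCCNNNGGC) and the box bound by Sp1 and its relatives (GGGCGG). Overlapping matches of different motifs were counted separately. Krt5 (chr15:101712906-101713155, minus strand) and Krt77 (chr15:101869706-101869955, minus strand) are shown because a summit lay within 1 kb of their start in 3 ectoderm libraries. Krt39 (chr11:99521339-99521588, minus strand) had one in 2 ectoderm libraries, and Krt73 (chr15:101802361-101802610, minus strand) in forebrain alone. Krt10 (chr11:99389365-99389614, minus strand) and Krt31 (chr11:100050552-100050801, minus strand) had none within 1 kb in any library. Krt7 (chr15:101412153-101412402, plus strand) is the CpG-richest keratin promoter of the table. All were chosen after their values were seen.
Krt5: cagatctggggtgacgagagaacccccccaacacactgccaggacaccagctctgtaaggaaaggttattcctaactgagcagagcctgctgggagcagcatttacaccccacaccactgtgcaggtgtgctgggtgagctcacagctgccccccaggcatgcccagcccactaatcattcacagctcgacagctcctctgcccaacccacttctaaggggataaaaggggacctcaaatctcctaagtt
Krt77: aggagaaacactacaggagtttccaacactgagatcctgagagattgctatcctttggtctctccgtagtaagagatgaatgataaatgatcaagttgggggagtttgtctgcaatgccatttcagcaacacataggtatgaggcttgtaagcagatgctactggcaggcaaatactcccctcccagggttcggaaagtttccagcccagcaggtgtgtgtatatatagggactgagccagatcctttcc
Krt39: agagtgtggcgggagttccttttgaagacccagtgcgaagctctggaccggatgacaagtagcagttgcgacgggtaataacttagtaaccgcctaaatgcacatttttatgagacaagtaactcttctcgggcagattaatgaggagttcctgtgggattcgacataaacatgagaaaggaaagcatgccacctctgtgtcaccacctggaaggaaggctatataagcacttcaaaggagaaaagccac
Krt73: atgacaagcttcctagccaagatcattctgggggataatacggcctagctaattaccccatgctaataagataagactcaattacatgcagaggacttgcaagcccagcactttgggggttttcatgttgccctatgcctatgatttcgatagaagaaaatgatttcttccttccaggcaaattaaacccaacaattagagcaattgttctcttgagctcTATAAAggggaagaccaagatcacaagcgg
Krt10: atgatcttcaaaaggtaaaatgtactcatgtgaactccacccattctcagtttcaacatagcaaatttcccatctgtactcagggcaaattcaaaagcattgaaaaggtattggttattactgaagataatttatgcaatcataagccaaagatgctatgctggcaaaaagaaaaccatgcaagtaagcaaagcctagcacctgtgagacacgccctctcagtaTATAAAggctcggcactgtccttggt
Krt31: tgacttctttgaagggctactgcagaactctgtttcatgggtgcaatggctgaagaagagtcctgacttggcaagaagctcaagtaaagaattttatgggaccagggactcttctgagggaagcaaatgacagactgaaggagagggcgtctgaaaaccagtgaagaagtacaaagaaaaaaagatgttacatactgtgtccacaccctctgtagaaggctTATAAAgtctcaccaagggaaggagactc
Krt7: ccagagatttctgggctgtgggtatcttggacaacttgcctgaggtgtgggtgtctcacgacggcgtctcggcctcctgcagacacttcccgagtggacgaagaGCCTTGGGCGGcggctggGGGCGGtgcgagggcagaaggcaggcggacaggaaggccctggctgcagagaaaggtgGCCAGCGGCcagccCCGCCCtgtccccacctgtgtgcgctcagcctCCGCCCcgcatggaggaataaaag
None of the 4 motifs, in these letters and this window, was found at Krt5, Krt77 or Krt39. A TATAAA match stood 26 bases before the start of Krt10, 29 before that of Krt31 and 30 before that of Krt73. Among the 36 keratin promoters of the table (35 genes, Krt13 having 2), 17 held TATAAA on either strand (47.2%), against 11.6% of 21262 promoters of protein-coding genes. On the coding strand and 40 to 20 bases before the start, 13 did (36.1%), against 2.53%. The GC box was present in 2 keratin promoters (5.56%) against 42.6%, AP-2 in 4 (11.1%) against 16.3%, and AP-1 in 2 (5.56%) against 6.13%. The median number of CpG dinucleotides was 4 in keratin promoters and 10 in all, with Krt7 at 16 and Krt18, another simple keratin, at 12. These matches describe the sequence and are not sites of binding.

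Start sites of keratin genes rarely carried a peak. Of the 35 keratins with a listed start, 0 had a summit within 1 kb of it in all 4 ectoderm libraries, against 50.1% of the genes of the promoter table. In at least 3 ectoderm libraries there were 2, Krt5 and Krt77, against 57.3%. The listed starts of some keratins, Krt14, Krt10 and Krt78 among them, lie inside the gene's span. At Krt14 a region of 3 ectoderm libraries had its summit 80 bp from the gene's outer end but 1560 bp from the listed start, so it is not counted here. By library, 5 and 5 keratin starts had a peak in forelimb replicates 1 and 2 (background 61.8% and 59.3%), 1 and 3 in hindlimb replicates 1 and 2 (53.8% and 61.4%) and 1 in forebrain (65.9%). The single hindlimb replicate 1 peak was at Krt7, 281 bp from the start, and the forebrain one at Krt73, 196 bp before it. At Krt39, a hair shaft keratin, the fold was 3.69 in forelimb replicate 1 and 3.80 in hindlimb replicate 2. When either gene end served in place of the start, which takes in all 49 placed genes, 8 had a peak within 1 kb in at least 3 ectoderm libraries (background 54.5%). These were Krt5, Krt14, Krt15, Krt77, Krt42, Krt80, Krt71 and Krt86, of which only Krt71 had it in all 4 (background 46.9%). In forebrain 5 did (background 64.7%).

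Over all regions, start sites included, a larger share was ectoderm-only at keratin genes than at genes in general, and a smaller share forebrain-only. There were 13 ectoderm-only regions among the 135 (9.63%, exact Clopper-Pearson 95% interval 5.23 to 15.9, which covers counting error only), against 2.27% of all regions near genes. They belonged to 11 of 49 genes (22.4%), against 11.4% of genes. Forebrain-only regions numbered 17 (12.6%, interval 7.51 to 19.4), against 31.9%, at 12 genes (24.5%), against 49.9%. With every list shortened to the same length, forebrain-only regions numbered 5 of 89 (5.62%, background 14.47%) at 5 genes (10.2%, background 24.0%). Ectoderm-only regions then numbered 11 (12.4%, background 5.03%) at 10 genes (20.4%, background 13.1%), nearer to the share over all genes than with the full lists. Only 3 regions were shared by all 5 libraries (2.22%, against 9.51%), at 3 genes (6.12%, against 54.1%). The most frequent pattern was a peak in some ectoderm libraries alone, at 89 regions (65.9%, against 43%), and 13 had a peak in forebrain and some ectoderm libraries (9.63%, against 13.2%). Among the 89, 20 regions had a peak in exactly 3 ectoderm libraries, and in all 20 the missing library was hindlimb replicate 1. Over all genes that library was the missing one in 79% of such regions. Without hindlimb replicate 1 the ectoderm-only count near keratins was 33 of 123 regions (26.8%, background 5.04%) at 22 genes (44.9%, background 20.0%). At the other end, 66 of the 135 regions (48.9%) had a peak in 1 library only, against 67.3%.

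**Figure D1:**
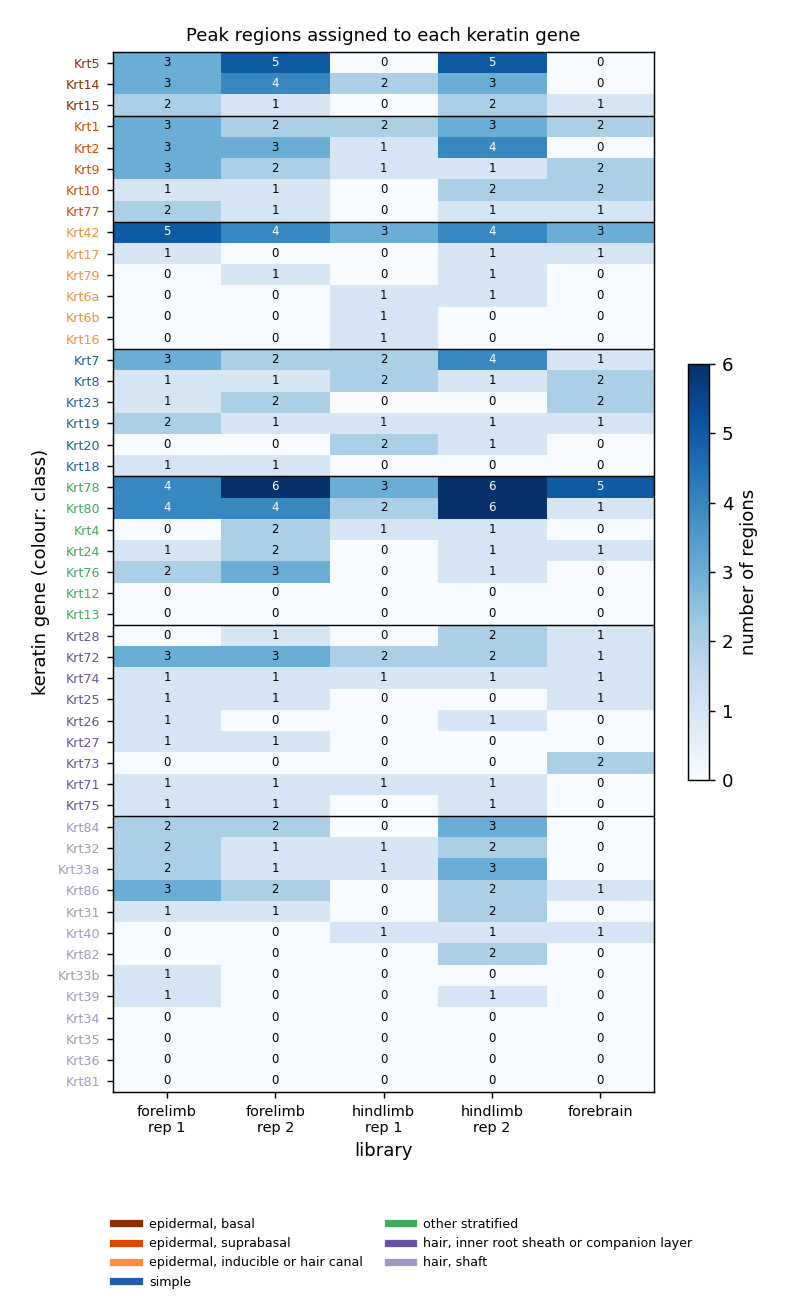
Number of peak regions assigned to each of the 49 placed keratin genes (rows, grouped and coloured by class) in each of the 5 libraries (columns). Krt5 has 3, 5 and 5 regions in forelimb replicates 1 and 2 and hindlimb replicate 2 and 0 in hindlimb replicate 1 and forebrain, while 6 genes have 0 in every library.

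The classes differed in how densely peaks were called around them. Each gene's territory, the stretch in which it is the nearest gene within 20 kb, was summed over a class to give regions per 100 kb. For the 3 basal epidermal genes Krt5, Krt14 and Krt15 the density was 12.7 and 15.8 in forelimb replicates 1 and 2, 3.17 and 15.8 in hindlimb replicates 1 and 2, with forebrain at 1.58. Over all genes it was 3.39 and 3.30, 2.37 and 3.64, and 5.53. The basal genes thus lay above the level of all genes in forelimb and in hindlimb replicate 2 and below it in forebrain. Their forebrain value rests on 1 region, at Krt15. In hindlimb replicate 1 their value rests on 2 regions, both at Krt14, with 0 at Krt5 and Krt15.
For the 5 suprabasal epidermal genes the forelimb densities were 9.35 and 7.01 and the hindlimb densities 3.12 and 8.57, with forebrain at 5.46. The 6 simple keratin genes had 4.05 and 3.54, 3.54 and 3.54, and 3.03. Simple keratins were above the level of all genes in 3 ectoderm libraries, by the most in hindlimb replicate 1 (3.54 against 2.37), and just below it in hindlimb replicate 2. They had the narrowest spread of any class over the 5 libraries. These densities rest on 8 and 7, 7 and 7, and 6 regions. Most of the 7 in hindlimb replicate 1, at Krt20, Krt19, Krt7 and Krt8, had a peak in that library alone, with folds of 2.42 to 2.83. An even density is therefore not evidence of the same sites in every library. The 13 placed hair shaft genes had 5.36 and 3.13, 1.34 and 7.15, and 0.894, the lowest forebrain density of the classes, on 2 regions. The 2 hindlimb values of the shaft genes lay on either side of the hindlimb values of the simple keratins, so their order is not resolved.

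**Figure D2:**
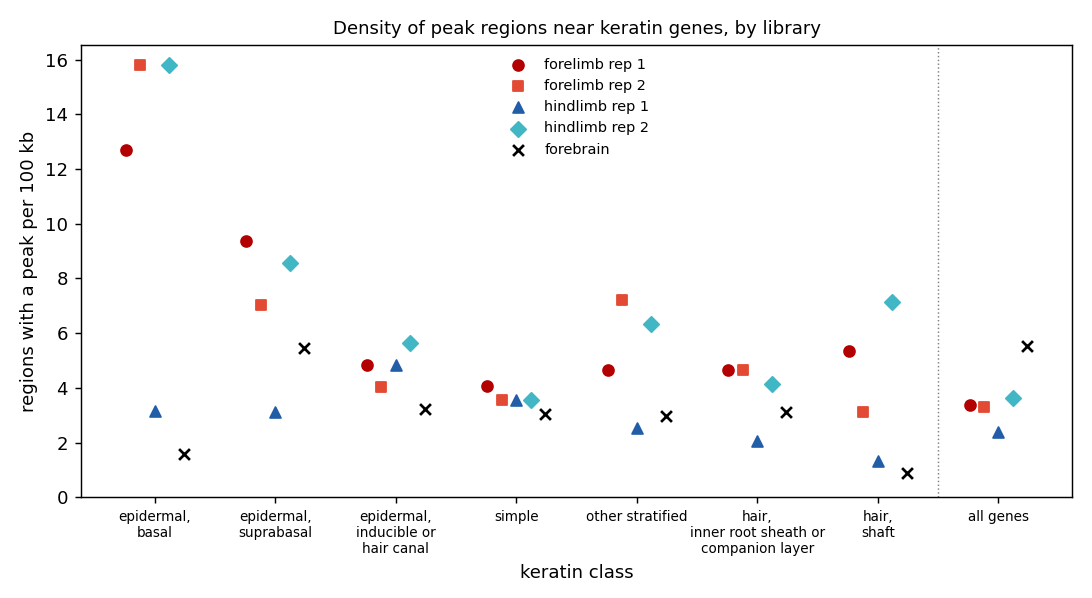
Regions with a peak per 100 kb of territory (vertical axis) for 7 keratin classes and for all genes (horizontal axis), 1 symbol per library. Basal epidermal keratins are at 12.7 to 15.8 in 3 ectoderm libraries, at 3.17 in hindlimb replicate 1 and at 1.58 in forebrain, where all genes are at 5.53.

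Of the 13 ectoderm-only regions, 7 belonged to epidermal keratins (14.9% of their 47 regions, interval 6.2 to 28.3), 1 to simple keratins (4.76% of 21, interval 0.12 to 23.8), 3 to hair keratins (7.32% of 41, interval 1.54 to 19.9) and 2 to other stratified keratins (7.69% of 26, interval 0.946 to 25.1). The intervals overlap and cover counting error only, and an order of the classes was not tested. Leaving out hindlimb replicate 1 raised these to 16 for epidermal, 3 for simple and 8 for hair keratins. The share over all regions near genes rose as well, from 2.27% to 5.04%. By gene, 5 of 14 epidermal, 1 of 6 simple, 2 of 7 other stratified and 3 of 22 placed hair keratins had an ectoderm-only region. As shares these are 35.7%, 16.7%, 28.6% and 13.6%, so the simple and hair keratins lay near the 11.4% of all genes. By region the share over all genes is 2.27%. The intervals take regions as separate trials, but regions of 1 gene are neighbours seen in the same libraries. Of the 7 epidermal regions, 2 were at Krt42 and 2 at Krt1. The intervals are therefore no test of a class against the share over all genes.

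Among the basal keratins, Krt14 (chr11:100203162-100207510) had 1 ectoderm-only region, at chr11:100208575-100209173, with its strongest summit 1.2 kb beyond the gene and on the side of its promoter. The fold enrichment there, as given by the authors for each peak in its own list, was 4.02 and 3.99 in forelimb replicates 1 and 2 and 3.42 and 5.24 in hindlimb replicates 1 and 2. Folds of other regions follow the same order of libraries. Ranked by −log10 p within each list, these peaks stood at percentiles 71.5, 70.7, 72.2 and 80.7, and the nearest forebrain peak was 38864 bp away. A second region, chr11:100207450-100207754, covered the outer end of the gene with folds of 3.67 and 2.3 in forelimb and 4.26 in hindlimb replicate 2. Another lay 2.9 kb beyond the other end, with 4.98, 3.55 and 3.26 in the same libraries. Forebrain had no peak assigned to Krt14.
Krt5 (chr15:101707069-101712905), the type II partner of Krt14, had 7 regions, none in hindlimb replicate 1 or forebrain. The start-site region, chr15:101712728-101713215, had folds of 3.67 and 3.39 in forelimb replicates 1 and 2 and 4.74 in hindlimb replicate 2, with its strongest summit 115 bp before the start. Regions 1014 bp and 3220 bp before the start had folds of 3.17, 2.11 and 2.96, and of 3.80, 3.22 and 2.51, in those libraries. The other 4 had a peak in 1 ectoderm library each. The nearest forebrain peak to the start-site region lay 47114 bp away. Krt15, a type I keratin of basal and hair follicle stem cells, had a region at one end of the gene (chr11:100135854-100136589) with 3.57 and 4.20 in forelimb and 2.66 in hindlimb replicate 2, and a forebrain-only region 1.9 kb from the gene.

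Suprabasal keratins held 4 ectoderm-only regions, at Krt1, Krt2 and Krt9. Krt1 (chr15:101845426-101850786), the type II keratin of differentiating epidermis, had 1 on either side. The region 2.1 kb away, chr15:101843145-101843610, had folds of 6.04 and 5.40 in the forelimb pair and 3.58 and 8.39 in hindlimb replicates 1 and 2, and the one 3.8 kb beyond the other end had 2.59 and 2.75, and 3.57 and 3.95. The former stood between percentiles 70.0 and 88.0 of each list and the latter between 10.6 and 70.9. Between them, inside the gene, chr15:101845879-101846579 was forebrain-only, with a fold of 6.87 and a −log10 q of 24.86, the largest of the forebrain-only regions of the keratins, and another forebrain-only region lay 2.0 kb from the gene.
Krt2, a keratin of the upper epidermal layers, had an ectoderm-only region 6.0 kb upstream (chr15:101824763-101825100) with folds of 8.54 and 6.88 in the forelimb pair and 4.32 and 7.14 in hindlimb. Inside the gene, a region with 7.31 and 5.81 in forelimb and 5.20 in hindlimb replicate 2 had no peak in hindlimb replicate 1. Krt9, the keratin of palm and sole skin, had its ectoderm-only region 9.8 kb downstream (chr11:100176703-100177229), with 8.36 and 6.83 in the forelimb pair and 4.73 and 7.44 in hindlimb. In each ectoderm list these Krt2 and Krt9 peaks ranked at percentile 79.2 or higher.
Krt10, the type I partner of Krt1, had no ectoderm-only region. Its region chr11:99385861-99386738, inside the gene, had a fold of 8.66 in forebrain, 2.81 in forelimb replicate 1 and 3.19 in hindlimb replicate 2, and a second region inside it, 6940 bp before the listed start, was forebrain-only with 4.09. Krt77 had a start-site peak, with folds of 2.95 and 3.20 in forelimb and 2.43 in hindlimb replicate 2, at percentiles 14.1, 33.6 and 4.85.

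Keratins induced in wounded or hyperproliferative skin or found in the hair canal were counted as a group, and Krt42 was placed with them without expression data. Krt42 alone of this group had regions shared by 3 or more ectoderm libraries. Krt42 (chr11:100262882-100269951) is a type I gene next to Krt17 at the end of the chromosome 11 cluster. Its region chr11:100286928-100287415, 17.2 kb upstream, had the highest-ranked keratin peak in each of the 4 ectoderm lists, at percentiles 92.5 and 90.5 in forelimb replicates 1 and 2 and 91.9 and 94.1 in hindlimb replicates 1 and 2. The folds were 7.18 and 6.38 in the forelimb pair and 5.58 and 8.50 in hindlimb replicates 1 and 2, and the nearest forebrain peak lay 4013 bp away. A neighbour 19.2 kb upstream had 4.91 and 5.18, and 3.63 and 3.99. These regions are assigned by distance alone, and chr11:100261965-100262805, with 5.58 and 5.22 in forelimb and 6.66 in hindlimb replicate 2, lies between Krt42 and Krt17. A region 12.2 kb upstream of Krt42 had a peak in all 5 libraries, with 5.30 and 3.98, 2.27 and 3.04, and 5.37 in forebrain.
Krt6a, Krt6b, Krt16, Krt17 and Krt79 had 1 or 2 regions each, with a peak in at most 2 libraries. Of these, chr15:101695682-101696027, 1.5 kb from Krt6a, had a peak in both hindlimb libraries, with folds of 3.04 and 3.21, and in neither forelimb library. Krt6a and Krt6b are near-identical copies, and how reads shared by them were placed was not tested.

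The simple keratins included the ectoderm-only region nearest to a listed start. Krt8 (chr15:101996711-102004342) had it at chr15:102005441-102005864, with its strongest summit 1299 bp before the start and the summits of the 4 libraries between 1287 and 1327 bp. The folds were 4.42 and 7.14 in forelimb replicates 1 and 2 and 3.55 and 8.19 in hindlimb replicates 1 and 2, at percentiles 72.6, 89.4, 77.1 and 90.2. Forebrain had 2 regions of its own on either side of it, inside the gene 1236 bp from the start and 3409 bp before it, with folds of 3.25 and 3.34. Krt18, the partner of Krt8, had a single region, 2.8 kb upstream, with 2.76 and 2.82 in forelimb and no peak in hindlimb or forebrain.
Krt7 had regions 1395 bp before the start (folds 4.29 and 4.33 in forelimb and 3.62 in hindlimb replicate 2) and inside the gene at chr15:101425011-101425382 (7.35, 6.24 and 6.11). Krt19, a type I keratin of simple epithelia and periderm, had a region inside the gene with 2.91 and 3.15 in forelimb, 3.32 in hindlimb replicate 2 and 2.85 in forebrain. Krt20, the keratin of intestinal epithelium, and Krt23 had no region with a peak in 3 ectoderm libraries.

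The keratins of other stratified epithelia ranged from no region at all, for the corneal keratin Krt12 and the mucosal keratin Krt13, to 9 at Krt78. The RefSeq span of Krt78 (chr15:101946001-101996624) runs far beyond its listed start toward Krt8, and the recurrent regions lay in that stretch. One, chr15:101966780-101967171, 12690 bp before the start, was ectoderm-only with folds of 5.95 and 4.61 in the forelimb pair and 2.63 and 5.09 in hindlimb. A second, chr15:101983821-101984692, 30127 bp before the start, had a peak in all 5 libraries, with folds of 6.2 and 6.46 in the forelimb lists, 4.98 and 6.58 in the hindlimb lists and 12.3 in the forebrain list. Another, chr15:101977124-101977860, had 11.5 in forebrain and 3, 2.88 and 4.19 in forelimb replicates 1 and 2 and hindlimb replicate 2. In forebrain these last peaks ranked at percentiles 94.4 and 94.3, the highest of any keratin region there. Forebrain-only regions of Krt78 had a −log10 q of 21.92 and 12.58.
Krt80, a widely expressed epithelial keratin at the outer edge of the chromosome 15 cluster, had an ectoderm-only region 11.7 kb away (chr15:101336412-101336928) with 2.94 and 3.55 in the forelimb pair and 3.06 and 6.26 in hindlimb. A region at one end of the gene, chr15:101369891-101370645, had 5.12, 4.12 and 4.50 in forelimb replicates 1 and 2 and hindlimb replicate 2, and one 9.7 kb away had 5.30, 4.35 and 3.90. Krt24 and Krt76 each had 1 region with a peak in those 3 libraries, with folds of 6.75, 4.26 and 7.17 and of 5.36, 4.25 and 6.84. Krt4, a keratin of oral and oesophageal mucosa, had 4 regions with a peak in 1 library each.

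Hair keratins held 3 ectoderm-only regions among 41 (7.32%, against 2.27% of all regions near genes), at 13.6% of the placed genes (against 11.4%). All 9 genes of the inner root sheath and companion layer had at least 1 region, and 9 of 13 placed hair shaft genes did (background 87.8%). Krt34, Krt35, Krt36 and Krt81 had 0 in every library, in territories of 8.9 to 14.3 kb. Per 100 kb of territory these groups had 10.3 and 9.38 regions, against 10.1 over all genes, so the counts by gene do not set them apart. The 3 ectoderm-only regions were at Krt71, Krt72 and Krt33a. At Krt71 (chr15:101733949-101743097), an inner root sheath keratin, chr15:101732805-101733150 lay 1.0 kb downstream, with 5.02 and 4.56 in the forelimb pair and 2.52 and 8.62 in hindlimb. At Krt72, a region 5.7 kb downstream had 2.90 and 2.87, and 2.96 and 3.76, next to chr15:101772451-101773060, which had a peak in all 5 libraries, with 6.08 and 5.29, 5.44 and 9.06, and 5.57 in forebrain. At the shaft keratin Krt33a, chr11:100005874-100006418 had 2.82 and 3.46, and 3.38 and 4.27. With only peaks of −log10 q of 5 or more, hair keratins had 0 ectoderm-only regions and epidermal keratins 6.
Regions that 3 ectoderm libraries shared without forebrain occurred at Krt74, Krt75, Krt31, Krt32 and Krt84, 1 at each. The folds were 4.30 and 4.72 in forelimb and 6.22 in hindlimb replicate 2 at Krt32, and 3.17, 3.35 and 3.43 at Krt31. At Krt84, they were 3.65, 2.59 and 4.01, and the ranks of the Krt84 and Krt31 peaks spanned percentiles 9.20 to 61.7. Krt73 had 2 regions, both forebrain-only, with folds of 4.30 and 4.79, and the latter overlaps the promoter printed above. Shaft keratins had 0 forebrain-only regions among 21, and the inner root sheath and companion layer 4 of 20, where the share over all genes is 31.9%. A difference between these classes was not tested.

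**Figure D3:**
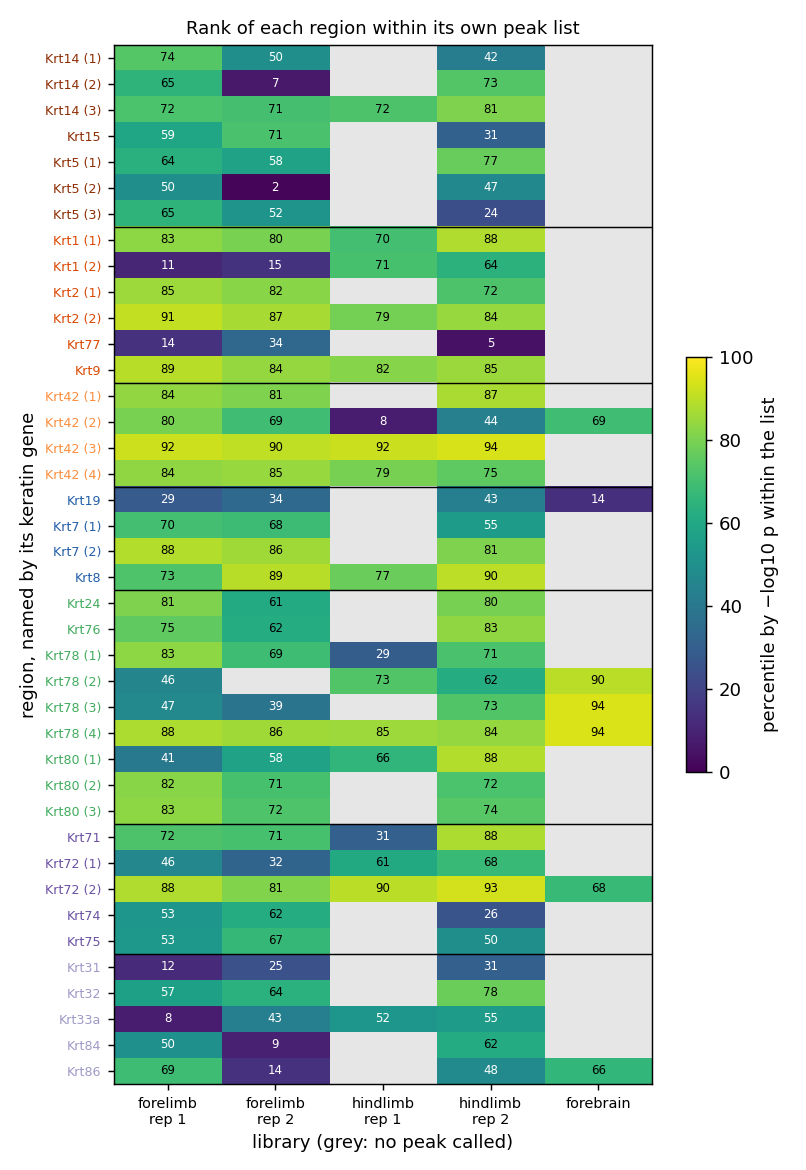
Percentile by −log10 p within each library's own list (colour and number) for the 40 keratin regions shared by 3 or more ectoderm libraries (rows, named by gene) in the 5 libraries (columns, grey where no peak was called). Hindlimb replicate 1 is grey at every region that lacks a single ectoderm library except 1 at Krt78, and forebrain has a peak at 7 of the 40.

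In all, 3 or more ectoderm libraries shared 40 keratin regions, of which 33 had none in forebrain (24.4% of the 135, against 5.24% over all genes). These are the 13 ectoderm-only regions and the 20 that lacked hindlimb replicate 1. They restate the count of 33 given above without that library and are not a further result. Epidermal keratins had 16 of the 33, simple keratins 3, other stratified keratins 6 and hair keratins 8. By gene, 22 of 49 had such a region (44.9%, against 21.9% of genes): all 3 basal keratins, 4 of 5 suprabasal, 1 of 6 inducible or hair canal, 2 of 6 simple, 4 of 7 other stratified, 4 of 9 inner root sheath or companion layer and 4 of 13 shaft keratins. Keratin peaks were of middling strength within each list, with median percentiles of 53.6 and 46.6 for forelimb, 44.3 and 52.1 for hindlimb and 54.3 for forebrain.

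Forebrain-only regions occurred in every class except the hair shaft keratins. Beside those given above, Krt28, an inner root sheath keratin, had one with a fold of 5.16, Krt23 had one with 4.62, Krt24 with 3.38, Krt74 with 2.62 and Krt7 with 2.49. By −log10 q the 5 strongest were at Krt1 (24.86), Krt78 (21.92 and 12.58), Krt42 (16.68) and Krt73 (12.16). The Krt42 region, chr11:100282471-100282915, with a fold of 5.03, stands next to the one shared by all 5 libraries.

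The regions lay mostly outside the RefSeq spans of the genes. Positions were not counted over all genes, so these numbers have no background beside them. Of the 13 ectoderm-only regions, 1 was inside a gene (Krt78), 5 upstream, 3 downstream and 4 beside genes whose strand the promoter table does not give. Of the 17 forebrain-only regions, 8 were inside a gene, 4 upstream, 3 downstream and 2 beside such genes. Some regions inside a span lay before the listed start, namely the ectoderm-only one at Krt78 and forebrain-only ones at Krt10 and Krt78. At the 35 genes with a listed start, 10 of 99 regions had their strongest summit within 1 kb of it, and none of these 10 was ectoderm-only.

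**Figure D4:**
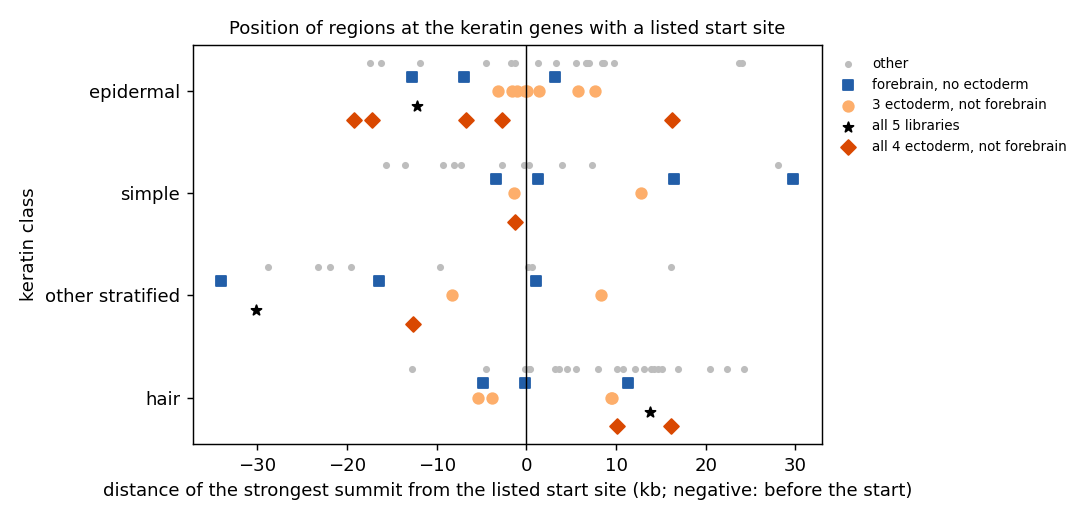
Distance in kb of the strongest summit of 99 regions from the listed start site of their keratin gene (horizontal axis, negative before the start), by class (vertical axis), with symbols for the libraries that had a peak. The ectoderm-only regions (9 of the 99) lie between 19.2 kb before and 16.2 kb after a start, the nearest being that of Krt8.

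Forelimb and hindlimb were compared at the same regions. A peak in both forelimb and neither hindlimb library was found at 5 of the 135 (3.70%, background 1.98%), 1 each at Krt9, Krt86, Krt72, Krt76 and Krt18, and the reverse at 2 (1.48%, background 0.659%), at Krt7 and Krt6a. Among the former, the folds in forelimb replicates 1 and 2 were 3.72 and 4.05 at Krt9, where forebrain had 6.39, and 2.89 and 4.18 at Krt86. Of the latter, the Krt7 region, 15.7 kb upstream, had 2.88 and 4.89 in hindlimb replicates 1 and 2. Both counts move with single libraries. Without hindlimb replicate 1 they were 5 (4.07%, background 2.39%) and 20 (16.3%, background 13.8%), and without hindlimb replicate 2 they were 27 (22.5%, background 8.52%) and 14 (11.7%, background 10.7%). Without forelimb replicate 1 the forelimb count was 21 (16.2%, background 12.9%), and without forelimb replicate 2 it was 15 (12.5%, background 13.45%). Apart from the 27, the counts that rose lay near the share over all genes. No keratin class can be said to differ between the limbs on these numbers.

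Counts were also made for genes around the keratin filament. A gene with more regions can more readily hold 1 of any pattern, so the number of regions is given with each list. The 15 other intermediate filament genes, such as Vim of mesenchyme and Nefl and Nes of neurons and their progenitors, had 94 regions. Ectoderm-only regions numbered 4 of the 94 (background 2.27% of regions). They lay at 3 of these genes (Vim, Lmna and Bfsp1, background 11.4%), and 11 genes had a forebrain-only region (49.9%). At 6 genes every ectoderm library had a peak within 1 kb of a gene end (46.9%). Another 10 genes link keratin to junctions or serve there, among them Dsp and Pkp1 of desmosomes and Dst of hemidesmosomes. They had 131 regions, 72 of them at Dst. Of the 131, 10 were ectoderm-only, against 13 of 135 at the keratins and 2.27% of all regions near genes. By gene, 6 had an ectoderm-only region (background 11.4%), 6 a forebrain-only one (49.9%) and 6 a peak at a gene end in every ectoderm library (46.9%). The 12 keratinocyte factor genes had 150 regions, 12 of them ectoderm-only (background 2.27%). A share of ectoderm-only regions above that of all genes was thus not particular to the keratins. By gene, 6 keratinocyte factor genes had an ectoderm-only region (background 11.4%), with 5 regions at Trp63. A forebrain-only region was found at 10 (49.9%), with 7 regions at Trp63. At 7 of the 12 every ectoderm library had a peak at a gene end (46.9%). Among the placed keratins 1 of 49 did, Krt71.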

How the data were processed

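Peaks of each library had been called separately by the authors and deposited as 1 list per library. MACS2 2.1.1.20160309, Bowtie2 2.3.5, cutadapt 1.16, bedtools and Picard, with the build mm10, are listed in the submitters' processing notes. The deposited lists give a fold enrichment and −log10 p and q values for each peak; read depth is unknown, and the lists hold no reads. A longer list can follow from depth or quality, which was not tested.

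Peaks sharing at least 1 bp were joined across libraries, and each region was assigned by summit to the nearest gene body (RefSeq GRCm38.p6) within 20 kb. Of 50 keratins, 49 were placed, and 35 have a start site in the promoter table. Percentiles rank a peak by −log10 p within its list. No test was run. The counting steps were tested on simulated data. Alternatives were a −log10 q minimum of 5, lists of equal length, chained summits within 250 bp, windows of 10 and 50 kb, nearest start sites and each ectoderm library left out. Either gene end as the start site, and every alternative by class, were added after seeing the data. Python 3.11.15, pandas 2.3.3, numpy 2.4.6 and scipy 1.17.1 were used.

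The members, the lists and the alternatives were chosen with earlier results of these data known. By rule, the keratins named are those with a region in all 4 ectoderm libraries, those with a forebrain-only region and those with a start-site peak in at least 2 ectoderm libraries. Further regions, including those with a peak in 3 ectoderm libraries, were singled out after their values were seen. The rule for sequences, start-site peaks in all ectoderm libraries, selected none.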

Additional observations from a re-analysis of the deposited data

How the results depend on the processing

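Of 110 values under alternatives, 89 stayed within 1.5 times the main count and 21 did not. With a −log10 q minimum of 5, ectoderm-only regions numbered 7 of 75 (9.33%, background 2.82%) at 6 genes (12.2%, background 8.0%), so the share of regions was near the main one and the share of genes nearer the background. The hair keratin count fell to 0 and the hindlimb count to 1, which was also 1 within 10 kb. With lists of equal length (55391 rows each), forebrain-only regions fell to 5 (5.62%) at 5 genes (10.2%), while the background fell to 14.47% of regions and 24.0% of genes. Start-site peaks in all ectoderm libraries became 2 with a distance of 2.5 kb and 1 with either gene end. Leaving out 1 ectoderm library at a time gave 13 to 33 ectoderm-only regions at 11 to 22 genes, 7 to 16 for epidermal, 1 to 3 for simple and 3 to 8 for hair keratins. The highest of each came without hindlimb replicate 1, as did the highest count of regions in all libraries, 3 to 6, and of start-site peaks, 0 to 2. The forelimb count ranged from 5 to 27 and the hindlimb count from 2 to 20. The causes were not tested, except that a stricter minimum, a shorter list or a missing library changes which peaks are counted. No paired analysis was possible because the results are counts of overlapping peaks with no test, and the forebrain has 1 library. Depth is unknown, so a missing peak does not show closed chromatin.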
